A study of Homo sapiens with 82 samples.

Results

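The 8 genes of apolipoproteins and lipoprotein assembly, APOE, APOC1, APOA1, APOA4, APOB, MTTP, PLTP and SCARB1, were followed in RNA-seq of HT29 cells treated with agonists of LXR or PPARG. They were taken by symbol from the 51838 gene rows of the count tables, and all 8 were found, each as 1 row. HT29 is an established line of human colorectal adenocarcinoma. Cells received DMSO, the LXR agonists GW3965 or T0901317, or the PPARG agonist rosiglitazone, each drug at 10 μM, for 24 or 48 h. This gave 8 groups of 4 libraries, 32 in all, in which the DMSO groups serve as the controls of their own time point. Each treatment was done 4 times per the methods of the study. Neither these nor the labels say that the 4 replicates are separate cultures, so p-values measure the spread between these libraries, which may be technical. Each drug was set against the 4 DMSO libraries of its time, which all 3 drugs have in common, so the comparisons are not independent of each other.

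Lipoproteins carry cholesterol, triglyceride and phospholipid through plasma in particles wrapped by apolipoproteins. APOB is the structural protein of chylomicrons and very low density lipoprotein, and MTTP loads it with lipid in the endoplasmic reticulum of hepatocytes and enterocytes. The smaller apolipoproteins APOE, APOC1, APOA1 and APOA4 exchange between particles, PLTP transfers phospholipid between particles during their remodelling, and SCARB1 is the receptor that takes up cholesteryl ester from high density lipoprotein. LXRs are oxysterol-activated nuclear receptors known for inducing genes of cholesterol efflux, among them APOE, APOC1 and PLTP in macrophages and adipose tissue.

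PLTP was the member that rose most with LXR agonists, by 4.56-fold with GW3965 and 3.37-fold with T0901317 at 48 h, and it did not rise with rosiglitazone at that time. SCARB1, with at least 3798 counts in every library, was 1.48-fold higher with GW3965 and 1.26-fold higher with rosiglitazone at 48 h. APOE and APOC1 were measured at about 1 CPM or less in every group, and APOE passed the test with no drug. APOA1 and MTTP had at most 8 counts in any library, APOB had counts in 1 library, and APOA4 had none. The low-count filter of edgeR kept APOE, APOC1, PLTP and SCARB1 in each fit, so the test covered 4 of the 8 members. A gene is called here at a Benjamini-Hochberg adjusted p under 0.01 over all genes tested, by edgeR's quasi-likelihood test. Levels are given in CPM, which are counts scaled to the size of each library with TMM factors, and since no transcript lengths were used, they were not compared between genes.

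Total counts ran from 21044798 to 51332656 per library. All 10 markers of colorectal epithelium had a mean over the 32 libraries of at least 2.68 CPM. None of 10 hepatocyte markers reached a mean of 1 CPM, and FGA and FGB were at 0 in every library. Of 9 markers of mature enterocytes, the intestinal cells that make chylomicrons, SI and SLC5A1 exceeded a mean of 1 CPM, and APOA4, APOB and MTTP are themselves on that list. Of 10 macrophage markers, CD68, CD14 and ITGAM exceeded a mean of 1 CPM, while PTPRC, which marks all leukocytes, had a mean of 0.0111 CPM and TYROBP and MARCO were at 0. In bulk samples, fewer cells of a type and less RNA per cell cannot be told apart.

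The promoter windows of PLTP are shown because PLTP rose most with LXR agonists among the members, and that of MTTP because it held the only nuclear receptor hexamer found. Each is the 250 bases before a RefSeq transcription start in GRCh38.p14, read 5′ to 3′ on the strand of the gene, in lower case with any match to the hexamer AGGTCA or its reverse complement in capitals. RefSeq gave 9 such windows for 5 of the members, APOE, APOC1, APOA4, MTTP and PLTP. The windows of PLTP lie on the minus strand at chr20:45910995-45911244 and chr20:45912156-45912405, and that of MTTP on the plus strand at chr4:99574574-99574823.
PLTP start 1: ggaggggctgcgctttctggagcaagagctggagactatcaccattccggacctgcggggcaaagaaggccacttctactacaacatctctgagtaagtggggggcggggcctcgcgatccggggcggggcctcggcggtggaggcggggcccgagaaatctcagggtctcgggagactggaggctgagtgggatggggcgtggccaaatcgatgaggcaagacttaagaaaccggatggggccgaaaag
PLTP start 2: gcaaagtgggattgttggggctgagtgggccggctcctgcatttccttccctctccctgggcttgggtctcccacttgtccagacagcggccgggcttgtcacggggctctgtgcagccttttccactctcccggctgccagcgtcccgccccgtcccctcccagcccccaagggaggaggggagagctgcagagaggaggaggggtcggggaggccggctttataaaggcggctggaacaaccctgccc
MTTP: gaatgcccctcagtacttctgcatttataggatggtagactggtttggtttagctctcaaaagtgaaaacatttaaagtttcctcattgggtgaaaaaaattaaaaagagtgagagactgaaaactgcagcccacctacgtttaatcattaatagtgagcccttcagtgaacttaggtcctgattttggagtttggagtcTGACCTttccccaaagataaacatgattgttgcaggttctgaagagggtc
The hexamer of MTTP began 50 bases before the start, on the opposite strand. Among all 35116 windows of the same length, 12.1% held AGGTCA on either strand. The direct repeats AGGTCANAGGTCA (DR1) and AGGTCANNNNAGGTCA (DR4), which contain the hexamer, were found in 0.0171% and 0.0142% of all windows and in none of the 9. Both repeats are so rare among all windows that finding none in 9 carries no information. Only these exact letters were searched, so repeats with other letters would be missed. These matches describe the letters of the windows only, and sites outside them were not searched.

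Remodelling of lipoproteins is represented by PLTP (ENSG00000100979.10), the phospholipid transfer protein. At 24 h its level in the DMSO libraries was 3.06, 3.07, 2.52 and 3.53 CPM, and with GW3965 it was 5.01, 5.66, 7.15 and 8.86 CPM. With T0901317 it was 6.31, 4.79, 4.40 and 5.22 CPM, and with rosiglitazone 4.28, 3.84, 4.14 and 3.75 CPM. All 12 treated libraries lay above all 4 DMSO libraries, with the widest gap for GW3965 and the narrowest for rosiglitazone. PLTP rose 2.20-fold with GW3965 (log2 fold change 1.13, SE 0.16, adjusted p = 0.000116, edgeR quasi-likelihood test). It was the only member called with GW3965 at 24 h, where 2.73% of the 21781 genes tested were called and 1.86% were called higher. With T0901317 the log2 fold change was 0.78 (SE 0.17, 95% interval 0.43 to 1.13, adjusted p = 0.0112), and no member was called, against 1.45% of all genes. With rosiglitazone it was 0.39 (SE 0.17, adjusted p = 0.112), and again no member was called, against 12.3% of all genes. The T0901317 value passed with DESeq2 (adjusted p = 0.000770), without the filter on low counts (0.00370) and with only the compared groups in the fit (0.00579).

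At 48 h, PLTP stood at 3.47, 4.75, 4.20 and 4.38 CPM in the DMSO libraries. With GW3965 it reached 17.9, 17.7, 22.2 and 19.1 CPM, and with T0901317 13.2, 13.6, 14.2 and 15.5 CPM. With rosiglitazone it was 3.89, 3.11, 3.81 and 3.73 CPM. The libraries of both LXR agonists were far above the DMSO range and did not overlap each other, GW3965 being the higher, whereas the rosiglitazone libraries overlapped with DMSO. The log2 fold change was 2.19 with GW3965 (SE 0.11, adjusted p = 7.49e-12) and 1.75 with T0901317 (SE 0.11, adjusted p = 1.82e-10). With rosiglitazone it was -0.22 (SE 0.12, 95% interval -0.47 to 0.02, adjusted p = 0.143). Neither LXR agonist call was lost when any 1 library of the compared groups was left out. Background calls were frequent at 48 h, as 33.6% of 22470 genes passed for GW3965, 30.0% for T0901317 and 25.5% for rosiglitazone.

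The macrophage markers CD68 and CD14 also rose with both LXR agonists at 48 h, by 0.88 and 1.94 with GW3965 and by 0.74 and 2.54 with T0901317 on the log2 scale. The summed level of the 10 macrophage markers was 9.23 to 12.7 CPM with DMSO, 16.9 to 21.6 CPM with GW3965, 17.4 to 19.1 CPM with T0901317 and 12.7 to 13.6 CPM with rosiglitazone at 48 h. Of the 3 macrophage markers tested, 2 were called higher with each LXR agonist, and CD68 was also higher with rosiglitazone, by 0.55 (adjusted p = 0.000250), where PLTP was not. PTPRC, TYROBP and MARCO were at or near 0 in all groups. Of 8 fibroblast markers, 3 were tested and COL1A1 was called higher with GW3965 at 48 h, by 0.53 (log2, adjusted p = 0.000868), while its value with T0901317 was 0.30 (adjusted p = 0.0422). The summed fibroblast level was 5.84 to 7.69 CPM with DMSO, 9.33 to 10.5 CPM with GW3965, 6.58 to 9.72 CPM with T0901317 and 7.97 to 8.84 CPM with rosiglitazone at 48 h, and COL1A2, COL3A1 and DCN had means under 0.01 CPM over the 32 libraries. Of the 10 colorectal epithelial markers, 6 were called higher with GW3965, and 4 higher and 2 lower with T0901317, at 48 h. Among them CDX1 rose by 1.05 and 0.85 and GPA33 by 1.11 and 0.89 on the log2 scale with GW3965 and T0901317. The 2 called lower with T0901317 were KRT8 and KRT18, with log2 fold changes of -0.215 and -0.305. Their values with GW3965, -0.15 and -0.17, were not called. CDH1, KRT20 and LGALS4 were called higher with rosiglitazone at 48 h, and VIL1, CDX1 and CDX2 were called lower. The marker counts at 48 h stand beside 33.6%, 30.0% and 25.5% of all genes called in either direction with GW3965, T0901317 and rosiglitazone. The summed epithelial level at 48 h was 17420 to 18510 CPM with DMSO and 18690 to 22300 CPM with rosiglitazone. With GW3965 it was 16530 to 17260 CPM, and with T0901317 14720 to 16260 CPM. CTSA, a lysosomal carboxypeptidase encoded next to PLTP, rose by 0.51 with GW3965 (adjusted p = 6.58e-06) and by 0.45 with T0901317 (adjusted p = 2.75e-05) at 48 h on the log2 scale, and PCIF1, on the other side, changed by -0.09 and -0.20 without being called. The part of these genes in the PLTP result was not tested.

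**Figure D1:**
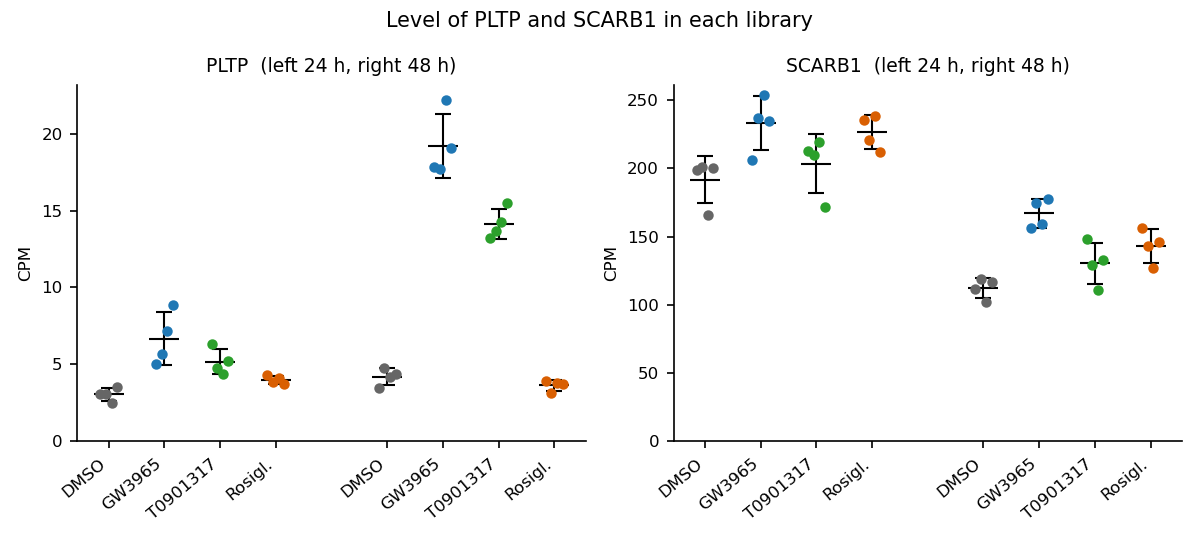
Level of PLTP (left panel) and SCARB1 (right panel) in CPM on the y axis for the 8 groups on the x axis. Points are the 4 libraries of a group, coloured by treatment, and black lines are the mean and SD. For PLTP the LXR agonist groups at 48 h, with means of 19.2 and 14.1 CPM, stand above all others, and for SCARB1 every 48 h group mean lies below every 24 h group mean.

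The direct comparison of the LXR agonists asked whether the members responded to GW3965 and T0901317 to the same extent at the same dose and time. PLTP was higher with GW3965 than with T0901317 at 48 h, by 0.44 (log2, SE 0.09, 95% interval 0.24 to 0.64, adjusted p = 0.00365). At 24 h the difference was 0.36 with an interval from 0.03 to 0.68 (adjusted p = 0.373), so a difference of the 48 h size lay within its error. At 48 h, 2 members were called, both higher with GW3965, against 8.36% of all genes called, and at 24 h no member was called, against 0.790%. The PLTP difference at 48 h was not called without GW3965 replicate 3 (adjusted p = 0.0197) or T0901317 replicate 2 (0.0152) or replicate 3 (0.010). Scaling by library size only gave 0.36 (adjusted p = 0.0157).

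Rosiglitazone and GW3965 were compared directly as the agonists of the different receptors. PLTP was lower with rosiglitazone by 0.74 (log2, SE 0.16, adjusted p = 0.00230) at 24 h and by 2.41 (SE 0.11, adjusted p = 9.09e-13) at 48 h. It was the only member called at either time, against 10.7% of all genes at 24 h and 45.0% at 48 h. The 24 h call was lost without GW3965 replicate 4 (adjusted p = 0.0114) or rosiglitazone replicate 4 (0.0102), and the 48 h call was not lost without any library.

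The response of PLTP to LXR agonists differed between the time points. In the fit of all 32 libraries, the GW3965 response was larger at 48 h than at 24 h by 1.06 (log2, SE 0.19, adjusted p = 7.92e-05), and the T0901317 response by 0.97 (SE 0.20, adjusted p = 0.000326). These were the only members called in the tests of time, which called 21.6% of 23140 genes for GW3965 and 17.4% for T0901317. For rosiglitazone the PLTP difference was -0.60 (SE 0.21, adjusted p = 0.0788), no member was called, and 2.45% of all genes were. Both calls held without any 1 of the 16 libraries concerned.

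In descending order, the group means of PLTP were 19.2 ± 2.09 CPM (SD, n = 4) with GW3965 at 48 h, 14.1 ± 0.990 with T0901317 at 48 h, 6.67 ± 1.71 with GW3965 at 24 h and 5.18 ± 0.826 with T0901317 at 24 h. DMSO at 48 h followed with 4.20 ± 0.539 CPM, then rosiglitazone at 24 h with 4.0 ± 0.249, rosiglitazone at 48 h with 3.64 ± 0.357 and DMSO at 24 h with 3.05 ± 0.416. The LXR agonist groups at 48 h were separate from each other and from the next group, and from GW3965 at 24 h downward each group overlapped with the next. The genes whose 8 group means were most like those of PLTP, among 14306 genes, were RP1-68D18.2 (Pearson r = 0.988), RP1-68D18.4 (0.988) and CLIP2, a microtubule linker (0.976). With 8 points, 2 of which lie far from the rest, these values are a description. The genes differed in the size of the response: CLIP2 went from 21.8 CPM with DMSO to 47.8 with GW3965 and 43.0 with T0901317 at 48 h, and RP1-68D18.2 from 8.03 to 10.7 and 10.6 CPM.

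The receptor SCARB1 (ENSG00000073060.9), which binds high density lipoprotein, was well expressed in every library, between 102 and 254 CPM. At 48 h it was 112, 119, 102 and 117 CPM with DMSO and 156, 175, 160 and 178 CPM with GW3965. With T0901317 it was 148, 129, 111 and 133 CPM, and with rosiglitazone 157, 143, 127 and 146 CPM. Every library of GW3965 and of rosiglitazone was above every DMSO library, and those of T0901317 overlapped with DMSO. SCARB1 rose with GW3965 by 0.57 (log2, SE 0.08, adjusted p = 1.07e-05) and with rosiglitazone by 0.33 (SE 0.08, adjusted p = 0.00331). For T0901317 the value was 0.22 (SE 0.08, 95% interval 0.05 to 0.38, adjusted p = 0.0388). SCARB1 was 1 of 2 members called higher with GW3965, against 16.1% of all genes called higher, and the only member called with rosiglitazone, against 12.3% called higher.

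The GW3965 call held without any library. The rosiglitazone call was lost without DMSO replicate 3 (adjusted p = 0.0149) or rosiglitazone replicate 1 (0.0107), and scaling by library size only gave 0.15 (adjusted p = 0.142), where the median of all genes moved to -0.19. T0901317 was called without its replicate 3 (0.28, adjusted p = 0.00659). Directly compared at 48 h, SCARB1 was higher with GW3965 than with T0901317 by 0.35 (log2, SE 0.08, 95% interval 0.18 to 0.52, adjusted p = 0.00531). This call was lost without any of replicates 2, 3 and 4 of GW3965 or of T0901317 (adjusted p between 0.0103 and 0.0201) and with library size scaling (0.27, adjusted p = 0.0213). Against GW3965, rosiglitazone was lower by 0.24 (SE 0.08, adjusted p = 0.0165), which was called without rosiglitazone replicate 1 (adjusted p = 0.00718) and with library size scaling (-0.37, adjusted p = 0.000572).

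At 24 h, SCARB1 was 199, 201, 166 and 201 CPM with DMSO, 206, 237, 254 and 235 with GW3965, 236, 221, 238 and 212 with rosiglitazone, and 213, 210, 219 and 172 with T0901317. The GW3965 and rosiglitazone libraries again lay above the DMSO range, but no change was called. The log2 fold change was 0.28 (SE 0.08, adjusted p = 0.0647) with GW3965, 0.09 (adjusted p = 0.769) with T0901317 and 0.24 (adjusted p = 0.0518) with rosiglitazone. Without GW3965 replicate 1, the GW3965 value was 0.34 and was called (adjusted p = 0.00978). The difference between the time points was 0.29 for GW3965 (95% interval 0.05 to 0.53, adjusted p = 0.0644), so an effect particular to 48 h was not shown. In order, SCARB1 was highest with GW3965 at 24 h (233 ± 19.8 CPM, SD, n = 4), then rosiglitazone, T0901317 and DMSO at 24 h, then GW3965 (167 ± 10.8), rosiglitazone, T0901317 and DMSO (112 ± 7.39) at 48 h, and each group overlapped with the next.

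**Figure D2:**
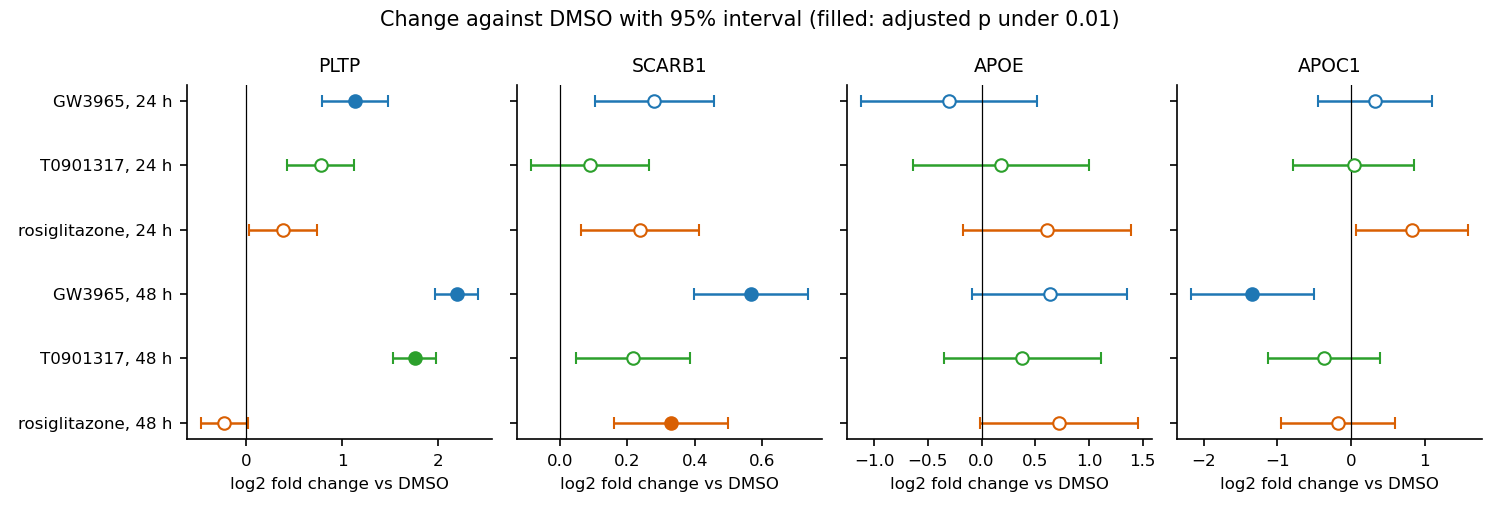
Log2 fold change against DMSO of the same time point on the x axis for the 4 tested members, 1 panel each with its own scale, with the drug and time on the y axis. Bars are 95% intervals of the edgeR fit and filled points have an adjusted p under 0.01. PLTP with GW3965 (2.19) and T0901317 (1.75) at 48 h lies farthest from 0, and the intervals of APOE include 0 in all 6 comparisons.

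Between the DMSO groups, 3 members differed from 24 to 48 h, against 38.6% of all genes. SCARB1 fell by 0.77 (log2, SE 0.09, adjusted p = 4.43e-09), and no library of 1 time overlapped with the other. PLTP was higher at 48 h by 0.47 (SE 0.15, adjusted p = 0.00915) and APOE was lower, with a log2 difference of -1.31 (SE 0.40, adjusted p = 0.00697). Time in culture and any difference in the preparation of the time points cannot be told apart. Of 8 libraries left out in turn, 6 cost the PLTP call (adjusted p up to 0.0517, without 24 h DMSO replicate 3) and 5 the APOE call (up to 0.0314, without 48 h DMSO replicate 1), and the SCARB1 call was never lost. The libraries of PLTP concerned were 24 h replicates 1 to 3 and 48 h replicates 2 to 4, and those of APOE 24 h replicates 2 to 4 and 48 h replicates 1 and 3.

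Among the exchangeable apolipoproteins, APOE (ENSG00000130203.4), the ligand of lipoprotein receptors on remnant particles, had 5 to 43 counts per library. At 24 h it was 0.392, 0.735, 0.783 and 0.813 CPM with DMSO, 0.503, 0.738, 0.887 and 0.121 with GW3965, 0.908, 1.24, 0.758 and 1.25 with rosiglitazone, and 0.621, 0.987, 0.920 and 0.584 with T0901317. All 3 drug groups overlapped with DMSO. At 48 h it was 0.147, 0.354, 0.220 and 0.367 CPM with DMSO, 0.266, 0.731, 0.300 and 0.429 with GW3965, 0.418, 0.454, 0.490 and 0.458 with rosiglitazone, and 0.424, 0.294, 0.392 and 0.297 with T0901317. Only the rosiglitazone libraries lay wholly above DMSO, by 0.0513 CPM. No log2 fold change was called, the values being 0.64 with GW3965 (SE 0.34, 95% interval -0.09 to 1.36, adjusted p = 0.143), 0.38 with T0901317 (-0.35 to 1.11, adjusted p = 0.413) and 0.72 with rosiglitazone (-0.02 to 1.46, adjusted p = 0.119). These intervals include both 0 and a log2 fold change of 1, so a response of that size was neither shown nor excluded. The 24 h values were -0.30 with GW3965, 0.18 with T0901317 and 0.61 with rosiglitazone, with adjusted p of 0.816, 0.926 and 0.287. TOMM40, a mitochondrial import gene next to APOE, was higher with rosiglitazone by 0.60 at 24 h (adjusted p = 4.49e-06) and by 0.82 at 48 h (6.47e-08), and lower with T0901317 at 48 h by a log2 difference of -0.58 (adjusted p = 3.42e-06).

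APOC1 (ENSG00000130208.4), an inhibitor of lipoprotein uptake and lipolysis encoded beside APOE, had 3 to 32 counts per library. At 48 h it was 0.911, 0.501, 0.342 and 0.452 CPM with DMSO and 0.332, 0.0813, 0.236 and 0.195 CPM with GW3965. With T0901317 it was 0.405, 0.245, 0.697 and 0.336 CPM, and with rosiglitazone 0.601, 0.518, 0.436 and 0.392 CPM. All GW3965 libraries were below all DMSO libraries, the nearest by 0.00962 CPM, while the other drugs overlapped with DMSO. The log2 fold change with GW3965 was -1.34 (SE 0.40, adjusted p = 0.00973), and APOC1 was the only member called lower, against 17.5% of all genes. This call was lost without DMSO replicates 1, 2 or 4 or GW3965 replicates 2, 3 or 4 (adjusted p between 0.0133 and 0.0595) and with RLE size factors (0.0102). Reads of APOC1 can be shared with its near-identical copy APOC1P1, which had a mean of 0.0193 CPM over the 32 libraries.

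At 24 h, APOC1 was 0.564, 0.351, 0.261 and 0.224 CPM with DMSO, 0.415, 0.301, 0.715 and 0.342 with GW3965, 0.363, 0.692, 0.537 and 0.945 with rosiglitazone, and 0.388, 0.329, 0.259 and 0.461 with T0901317. The groups overlapped, and the log2 fold changes of 0.32, 0.04 and 0.83 were not called (adjusted p = 0.782, 0.989 and 0.120). The GW3965 response differed between the times by -1.66 (SE 0.55, adjusted p = 0.0207), which was called without 24 h DMSO replicate 1 (-2.0, adjusted p = 0.00828). At 48 h the difference between GW3965 and T0901317 was -0.97 with an interval from -1.80 to -0.14 (adjusted p = 0.103).

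**Figure D3:**
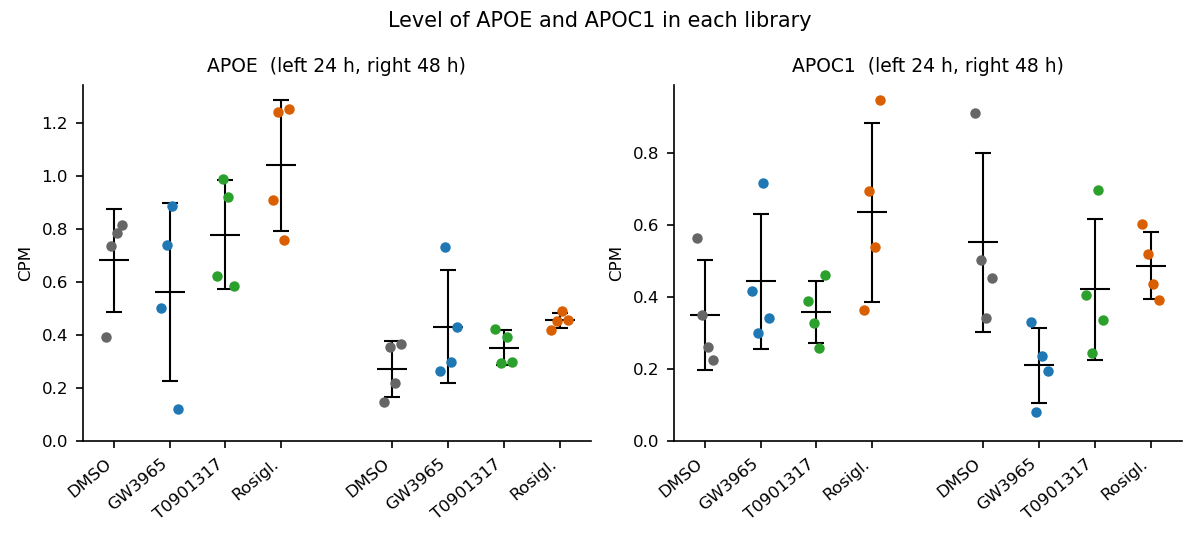
Level of APOE (left panel) and APOC1 (right panel) in CPM on the y axis for the 8 groups on the x axis. Points are the 4 libraries of a group, coloured by treatment, and black lines are the mean and SD. Both genes stay below 1.26 CPM in all 32 libraries, and the GW3965 libraries at 48 h are the lowest group of APOC1.

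APOA1 (ENSG00000118137.5), the main protein of high density lipoprotein, had 48 counts over the 32 libraries, 0 in 17 of them and at most 8 in the other 15. GW3965 groups held 0 counts at 24 h and 2 at 48 h, T0901317 groups 11 and 11, rosiglitazone groups 4 and 7, and DMSO groups 7 and 6. The highest library was at 0.246 CPM, and the groups overlapped. Its antisense gene APOA1-AS had a mean of 0.367 CPM over the 32 libraries and counts in all of them. The strand setting of the counting is not given in the sources used here, so reads of APOA1 and APOA1-AS cannot be told apart. APOA1-AS was lower with T0901317 at 48 h by a log2 difference of -0.95 (SE 0.27, adjusted p = 0.00841). APOA4 (ENSG00000110244.5), an apolipoprotein of intestinal chylomicrons, had 0 counts in every library, which allows up to 0.00242 CPM over the 32 libraries.

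Assembly of APOB particles rests on APOB and MTTP. APOB (ENSG00000084674.8) had 4 counts, all in T0901317 replicate 4 at 48 h (0.0792 CPM), and 0 in the other 31 libraries. MTTP (ENSG00000138823.7), the microsomal triglyceride transfer protein, had 55 counts in 23 libraries, with at most 8 in 1 library (0.224 CPM). Its group sums at 24 h were 9 (DMSO), 10 (GW3965), 5 (T0901317) and 11 (rosiglitazone), and at 48 h 7, 5, 3 and 5 in the same order. A count of 0 in 1 library allows between 0.0579 and 0.141 CPM, so most of these values lay at the limit of detection. Differences between groups among such low values were not detectable at this depth. No library of APOA1, APOA4, APOB or MTTP exceeded 0.246 CPM. Of 4 enterocyte markers tested at 48 h, 2 were called higher with each LXR agonist and 3 lower with rosiglitazone. SI and SLC5A1, well above this limit, rose by 0.61 and 0.80 with GW3965 and by 0.99 and 0.88 with T0901317 (log2). With rosiglitazone they fell by 2.99 and 0.74. ANPEP and FABP2 changed by 0.01 and -0.18 with GW3965 and by 0.56 and -0.09 with T0901317, none of them called. ANPEP was called lower with rosiglitazone (-1.31). Without the filter on low counts, APOA1, APOB and MTTP were not called in any comparison in which they could be tested.

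**Figure D4:**
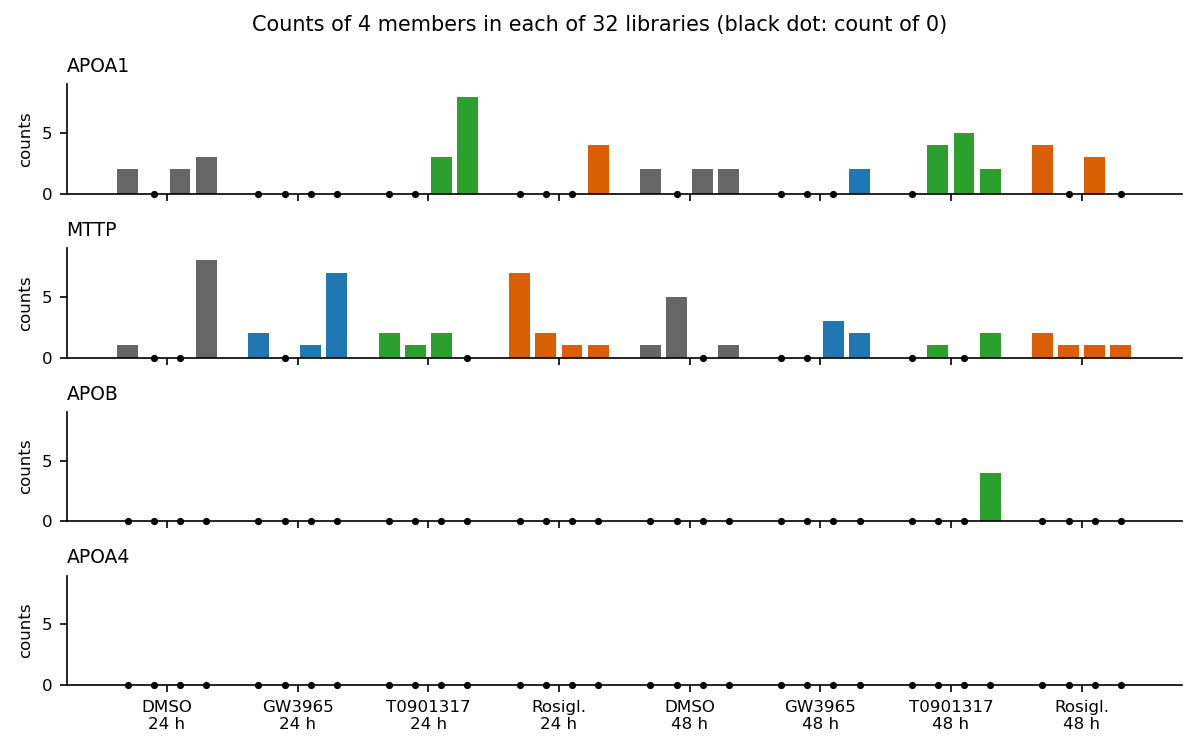
Counts per library on the y axis of APOA1, MTTP, APOB and APOA4, 1 panel each, with the 32 libraries in their 8 groups on the x axis. Bars are coloured by treatment and black dots mark a count of 0. No library exceeds 8 counts, APOB has counts in 1 library and APOA4 in none.

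The wider pathway was described by 5 gene lists chosen by role, beside a median log2 fold change of all genes between -0.02 and 0.01 in every comparison with DMSO. Of 23 partners of lipoprotein assembly and secretion, 18 were tested. With GW3965 at 48 h, 7 of them were called higher and 4 lower (median log2 fold change 0.31), with T0901317 9 and 3 (0.33), and with rosiglitazone 3 and 6 (-0.04). At 24 h the counts were 1 and 0 with GW3965, 0 and 0 with T0901317, and 1 and 3 with rosiglitazone. Of all genes tested, 33.6%, 30.0% and 25.5% were called in these 48 h comparisons in the same drug order, and 2.73%, 1.45% and 12.3% at 24 h. FABP1, a fatty acid binding protein of liver and intestine, rose in 5 of the 6 comparisons, most with rosiglitazone, by 4.30 (log2, SE 0.28, adjusted p = 1.25e-09) at 24 h and 3.96 (SE 0.18, adjusted p = 3.94e-12) at 48 h. At 48 h, it rose by 2.54 with GW3965 and 1.69 with T0901317. MIA2, which helps export large particles from the endoplasmic reticulum and whose Ensembl ID stands in the row named CTAGE5, fell by 0.99 with GW3965 and by 1.02 with T0901317 at 48 h. MOGAT3, a monoacylglycerol acyltransferase, fell by 0.97 with rosiglitazone at 24 h, and SOAT1, which esterifies cholesterol, fell by 1.35 at 48 h. Chosen after their values were seen, P4HB, the partner subunit of MTTP, rose by 0.42 with GW3965 and 0.28 with T0901317 at 48 h, and DGAT2, which makes triglyceride, by 0.83 and 0.61.

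Of 19 other apolipoproteins, 9 were tested at 24 h and 10 at 48 h. At 48 h, 2 were called higher and 1 lower with GW3965 (median 0.16), 3 and 1 with T0901317 (0.64), and 0 and 2 with rosiglitazone (-0.26). At 24 h, 1 was called lower with GW3965, 1 lower with rosiglitazone and none with T0901317, with medians between -0.13 and -0.01. At 48 h, 3, 4 and 2 of 10 called stand beside 33.6%, 30.0% and 25.5% of all genes, and at 24 h 1, 0 and 1 of 9 beside 2.73%, 1.45% and 12.3%. APOL2, an intracellular member of the APOL family, rose by 0.72 with GW3965 and 1.13 with T0901317 at 48 h. APOL1, a secreted member found on high density lipoprotein, rose by 0.91 with T0901317 at 48 h and fell by 0.69 with GW3965 at 24 h and by 0.90 with rosiglitazone at 48 h. APOL6 fell by 1.2 with GW3965 at 48 h. CLU, also called apolipoprotein J, fell by 0.90 at 24 h and by 1.05 at 48 h with rosiglitazone. APOA5, APOC2, APOC3 and APOC4, of the same gene clusters as the members, each had a mean of at most 0.0256 CPM and were not tested.

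Of 14 genes of remodelling in plasma, 10 were tested. At 48 h, 4 were called higher and 2 lower with GW3965 (median 0.14), 3 and 1 with T0901317 (-0.06), and 1 and 4 with rosiglitazone (-0.16). At 24 h the counts were 1 and 0, 2 and 0, and 1 and 3. The shares of all genes called were 33.6%, 30.0% and 25.5% at 48 h and 2.73%, 1.45% and 12.3% at 24 h. LIPG, endothelial lipase, rose by 0.30 (log2) with T0901317 at 24 h. ANGPTL4, an inhibitor of lipoprotein lipase, rose with GW3965 at 48 h and with rosiglitazone at both times. LPL itself had 0 counts in every library.

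Of 16 receptors and efflux transporters, 15 were tested. At 48 h, 6 were called higher and 2 lower with GW3965 (median 0.51), 6 and 3 with T0901317 (0.37), and 5 and 2 with rosiglitazone (0.23). At 24 h the counts were 4 and 0, 4 and 0, and 3 and 2. Over all genes, calls made up 33.6%, 30.0% and 25.5% at 48 h and 2.73%, 1.45% and 12.3% at 24 h. The cholesterol exporters ABCA1 and ABCG1 had the largest log2 fold changes with both LXR agonists at both times, between 3.04 and 5.77. With rosiglitazone, ABCA1 fell by 0.95 at 24 h and ABCG1 rose by 1.22 at 48 h. VLDLR, a receptor for APOE-rich particles, rose with rosiglitazone by 1.89 (SE 0.10, adjusted p = 1.19e-10) at 24 h and 1.21 (SE 0.14, adjusted p = 1.44e-06) at 48 h.

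Of 14 transcription factors that regulate apolipoprotein genes, all were tested. At 48 h, 5 were called higher and 4 lower with GW3965 (median 0.06), 3 and 6 with T0901317 (-0.21), and 5 and 3 with rosiglitazone (0.08). At 24 h the counts were 2 and 1, 2 and 1, and 2 and 3. Against these counts, 33.6%, 30.0% and 25.5% of all genes were called at 48 h, and 2.73%, 1.45% and 12.3% at 24 h. SREBF1, which drives fatty acid synthesis, rose with both LXR agonists, by 1.99 and 1.76 at 24 h and by 2.16 and 1.48 at 48 h with GW3965 and T0901317. NR1H3, which encodes LXRA, rose with all 3 drugs at both times, between 0.74 and 1.65. FOXA2 fell by 0.89 at 24 h and NR5A2 by 0.86 at 48 h with rosiglitazone. Members of these lists and the 8 genes were measured in the same libraries, and no test of a list as a whole was made.

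**Figure D5:**
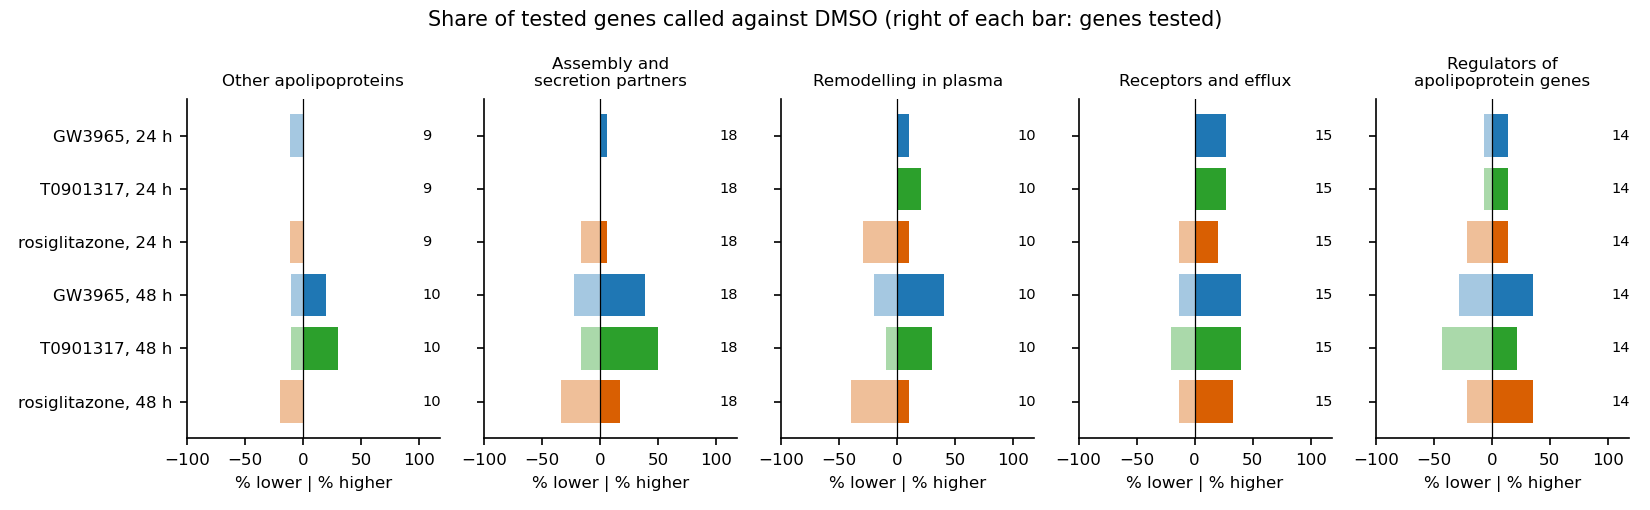
Share of the tested genes of each of 5 lists that was called higher (full colour, to the right) or lower (pale, to the left) against DMSO on the x axis, in percent, for the 6 drug and time combinations on the y axis. The number at the right of each bar is the number of genes tested, between 9 and 18. For both LXR agonists, the full and pale bars add up to a longer span at 48 h than at 24 h in all 5 lists, and the share called among all genes went from 2.73% to 33.6% with GW3965 and from 1.45% to 30.0% with T0901317.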

How the data were processed

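RNA of 32 HT29 libraries was sequenced from both ends by the authors, who deposited 1 table of raw counts, whole numbers per Ensembl gene, for each time point. The columns abbreviated ROSA were read as rosiglitazone, the only agent left. The submitters' processing notes name TopHat, Cufflinks and hg19 without their roles. Counting program, annotation and strand setting: not given in the sources used here. Counts of 2 were about as frequent as counts of 1 (50039 and 50072 values over the tables), and counts of 4 as counts of 3 (26191 and 26530). Whether both reads of a pair were counted is not stated. ChIP-seq peaks were not analysed here.

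The members and gene lists were chosen with earlier results of these data known. Models were fitted in edgeR 4.0.16 (R 4.3.3) with TMM factors and filterByExpr, over the 16 libraries of each time or, between times, over all 32. Quasi-likelihood p-values were adjusted after Benjamini-Hochberg over 21781 genes at 24 h, 22470 at 48 h and 23140 in the joint fit, and genes were called at an adjusted p under 0.01. The SE is the absolute log2 fold change over the square root of F, and 95% intervals use the t distribution of the fit. The biological coefficient of variation was between 0.0981 and 0.101. Limits for a count of 0 stand for 3 counts and cover counting error only. If both reads of a pair were counted, 3 counts are fewer than 3 fragments and these limits are too low. No pair of libraries of a group was identical, and each pair differed by more than sampling noise (chi-square per degree of freedom of at least 3.66). Genes named from the lists were the 2 with the largest change among those called whose average log2 CPM was 0 or more, for each list and comparison, and exceptions are marked. Some genes that this rule names are not reported here. On simulated counts, edgeR recovered 100% of 100 genes changed 2-fold for GW3965 at 24 h (21509 genes, 3 false calls), GW3965 at 48 h (22176 genes, 0) and DMSO across times (22495 genes, 2), and 92% for the GW3965 response across times (22428 genes, 0). The changed genes were drawn from genes with higher mean counts than APOE and APOC1. List genes were matched by the Ensembl ID of their present symbol, so MIA2 stands for the row CTAGE5, and a separate row named MIA2 was not used.

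Alternatives were DESeq2 1.42.0, RLE factors, library size only, no filter, only the compared groups, a block for the replicate number, other thresholds and leaving out each library. RefSeq promoter windows were searched in Python 3.11.15, and plots were drawn with matplotlib 3.10.9.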

Additional observations from a re-analysis of the deposited data

Results flagged for a closer look

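The PLTP response to GW3965 was larger at 48 h than at 24 h by 1.06 on the log2 scale, and that to T0901317 by 0.97, by the test of the difference itself in the fit of all 32 libraries.

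In groups of 4, a library was marked where its gap to the nearest other library took more of the range of the group than Dixon's 95% critical value allows. This was so in 6 of the 48 groups of a member that had any range. The rate of about 1 in 20 by chance holds for normally spread values and not for counts near 0. Where all other libraries of a group are at 0, any count is marked, so no excess can be read from this number. For SCARB1, DMSO replicate 3 at 24 h was low with 166 CPM, and without it the SCARB1 value with GW3965 at 24 h was 0.22 (adjusted p = 0.201). The other 5 were of APOA1, MTTP and APOB, which had at most 8 counts in any library. APOA1 was at 0.122 CPM in rosiglitazone replicate 4 at 24 h, at 0 in DMSO replicate 2 at 48 h and at 0.0390 CPM in GW3965 replicate 4 at 48 h. MTTP was at 0.224 CPM in DMSO replicate 4 at 24 h, and APOB at 0.0792 CPM in T0901317 replicate 4 at 48 h.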

How the results depend on the processing

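The calls of PLTP with both LXR agonists at 48 h kept their direction and passed under each alternative run, and so did that of SCARB1 with GW3965 at 48 h except where a fold of at least 2 was required. The number of members called moved as follows. For T0901317 at 24 h it was 1 in place of 0 with DESeq2, without the filter, with only the compared groups, in a fit of all 32 libraries (added after seeing the data) and at an adjusted p under 0.05. The latter threshold also gave 2 for T0901317 at 48 h, 3 for rosiglitazone against GW3965 at 48 h and 2 for the GW3965 response across times. The share of all genes called at an adjusted p under 0.05 was not computed. Requiring a fold of at least 2 left 0 for rosiglitazone at 48 h, for GW3965 against T0901317 at 48 h, for rosiglitazone against GW3965 at 24 h and for the T0901317 response across times, 1 for DMSO across times and 2 in place of 3 for GW3965 at 48 h, where SCARB1 was lost. Under this rule, 5.86%, 0.463%, 2.06%, 4.09%, 8.53% and 5.77% of all genes were called in these comparisons, in the same order. With library size only, the counts at 48 h were 0 for rosiglitazone, 0 for GW3965 against T0901317 and 2 for rosiglitazone against GW3965. Of 22470 genes, this scaling called 1374 higher and 5459 lower, 733 and 1566, and 3674 and 6546 in the same order. This scaling moved the median of all genes to -0.19 with rosiglitazone at 48 h and to -0.11 at 24 h, and the share of called genes that were higher from 48.4% to 20.1% and from 47.1% to 25.2%. In the fit of all 32 libraries, GW3965 against T0901317 at 48 h gave 1 in place of 2. With 1 library left out, the counts ranged from 1 to 2 for GW3965 at 24 h, 0 to 0 for T0901317 and rosiglitazone at 24 h, 2 to 3 for GW3965, 1 to 2 for T0901317 and 0 to 1 for rosiglitazone at 48 h, 0 to 2 for GW3965 against T0901317 at 48 h, 0 to 1 at 24 h and 1 to 2 at 48 h for rosiglitazone against GW3965, 1 to 2 for the GW3965 response across times and 1 to 2 for DMSO across times. Values turned sign only where no change was called. With library size only these were APOC1 with T0901317 at 24 h (-0.0049) and APOE in rosiglitazone against GW3965 at 48 h (-0.053). Without 1 library, the log2 values that turned sign ranged from -0.12 to 0.38 for APOC1 with T0901317, from -0.032 to 0.43 for APOC1 in GW3965 against T0901317, from -0.63 to 0.056 for APOE with GW3965, from -0.020 to 0.29 for APOE with T0901317 and from -0.093 to 0.0015 for SCARB1 in rosiglitazone against GW3965, all at 24 h. At 48 h they ranged from -0.36 to 0.17 for APOC1 with rosiglitazone, from -0.081 to 0.43 for APOE in GW3965 against T0901317 and from -0.087 to 0.44 for APOE in rosiglitazone against GW3965, and for the rosiglitazone response of APOE across times from -0.057 to 0.33. The replicate numbers did not pair the libraries: correlations of same-numbered deviations ran from -0.402 to 0.487 at 24 h and from -0.172 to 0.312 at 48 h, with 5 of 16 and 4 of 16 libraries closest to their own number. With a replicate block, rosiglitazone against GW3965 at 48 h gave 2 through SCARB1 (-0.24, adjusted p = 0.00368), and DMSO across times 1, since PLTP (0.37, adjusted p = 0.128) and APOE (-1.24, adjusted p = 0.0706) were not called. At 3 to 43 counts per library, depth limits APOE and APOC1. Differences among the values of APOA1, APOA4, APOB and MTTP, all at 0.246 CPM or less, were not detectable. The cause of these shifts was not tested.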

Other observations

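VLDLR, the receptor for very low density lipoprotein, changed with time in DMSO and in opposite directions with LXR agonists at the time points, a pattern noticed in the data. Its mean level was 2.01 ± 0.207 CPM (SD, n = 4) with DMSO at 24 h and 19.9 ± 1.81 CPM at 48 h, a rise of 3.30 (log2, SE 0.15, adjusted p = 1.29e-18). At 24 h, GW3965 and T0901317 libraries were at 6.18 ± 0.357 and 5.69 ± 0.561 CPM, above DMSO by 1.62 and 1.5 on the log2 scale. At 48 h they were at 13.3 ± 1.75 and 11.2 ± 1.48 CPM, with log2 fold changes of -0.59 (adjusted p = 0.00233) and -0.83 (adjusted p = 0.000115). The response differed between the times by -2.20 with GW3965 (SE 0.19, adjusted p = 1.85e-10) and by -2.32 with T0901317 (SE 0.20, adjusted p = 8.49e-11). With rosiglitazone, VLDLR was at 7.51 ± 0.330 CPM at 24 h and 46.6 ± 11.5 CPM at 48 h. Time in culture and the preparation of the time points cannot be told apart.

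The brain and epithelial APOE receptor LRP8 rose with GW3965 by 0.61 at 24 h and 1.45 at 48 h and with T0901317 by 0.67 and 1.33 on the log2 scale. LRP8 was chosen after its values were seen.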
